A study of Mus musculus with 2 samples.

Results

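Rspo2-positive excitatory nuclei were examined in 2 single-nucleus RNA-sequencing libraries of the mouse brain. Nuclei were selected on 300 to 7000 detected genes and at least 2000 unique molecular identifiers (UMIs, each standing for 1 captured transcript), at least 3 UMIs of Rspo2, at least 2 of Slc17a7, at most 3 of Cux2, at most 4 of Foxp2, at most 2 of Gad1 and Gad2 together and at most 5 of Mobp and St18 together. This rule kept 375 of the 30413 nuclei, 174 in the library labelled Normal and 201 in the library labelled SAH. One library came from normal mice and the other from mice 12 h after subarachnoid haemorrhage (SAH) made by endovascular puncture. Each library was a single pool of tissue from 3 male C57BL/6J mice aged 6 to 8 weeks by the labels, taken from the ipsilateral hemisphere between bregma 2.34 and -2.18 mm. The study's text describes its controls as sham-operated, whereas the labels call them normal. The question put to these nuclei was whether they have the identity their working label gives, excitatory neurons of the amygdala, and how the SAH library differs from the Normal library within them.

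R-spondin 2, the product of Rspo2, is a secreted protein that strengthens Wnt signalling by binding LGR receptors and removing the ubiquitin ligases ZNRF3 and RNF43 from the cell surface. In the mouse basolateral amygdala, Rspo2 marks a group of glutamatergic neurons of the anterior part that is known for its role in fear and other aversive behaviour. Npsr1 encodes the neuropeptide S receptor, Bmp3 a ligand of the bone morphogenetic protein family, C1ql3 a secreted C1q-like synaptic protein that binds the adhesion receptor encoded by Adgrb3, and Gm11639 is a predicted gene. On the GRCm38 build Rspo2 lies on the minus strand of chromosome 15 from 43020794 to 43170826, Npsr1 on the plus strand of chromosome 9 from 24097996 to 24316398 and C1ql3 on the minus strand of chromosome 2 from 13003457 to 13011806. Reads in introns were counted as well as those in exons, so a gene's UMIs include unspliced RNA.

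The Normal and SAH libraries held 114970719 and 172604358 UMIs, and 10035 and 15287 nuclei passed the limits on genes and UMIs, of which 3338 and 3333 had the Slc17a7, Gad and oligodendrocyte-gene limits of an excitatory nucleus. The Rspo2-positive nuclei made up 5.21% of the excitatory nuclei in the Normal library (exact 95% binomial interval 4.48 to 6.02) and 6.03% in the SAH library (5.25 to 6.89). Of all nuclei that passed the limits on genes and UMIs they made up 1.73% (1.49 to 2.01) and 1.31% (1.14 to 1.51). The direction of the difference thus depended on which nuclei were counted. They were deeper than the other excitatory nuclei, with a median of 19160.5 UMIs in Normal and 19509 in SAH against 11907 and 14320.5 in excitatory nuclei without an Rspo2 UMI. A rule asking for 3 UMIs favours deep nuclei, and only 22 Normal and 16 SAH nuclei passed it after every nucleus had been thinned to 5000 UMIs. The libraries shared 78 barcodes, none of them a member in both. With 1 library per group there is no replicate, so no difference between Normal and SAH was tested, and every interval below covers counting error only, not the spread between nuclei, mice or libraries.

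The Rspo2 level that chose the nuclei ranged from 3 to 27 UMIs with a median of 5 in Normal, and from 3 to 20 with a median of 4 in SAH. Exactly 3 UMIs were found in 51 Normal and 65 SAH members, 10 or more in 25 and 26, and 95 and 104 excitatory nuclei stood just outside with 2 UMIs. In oligodendrocyte-type nuclei, which should lack the gene, 1.37% of 586 Normal nuclei and 1.70% of 1586 SAH nuclei held an Rspo2 UMI, at median depths of 3028.5 and 3014.5 UMIs. After thinning to 2000 UMIs, 42.5% and 46.3% of the members still held an Rspo2 UMI, against 0.853% and 0.883% of the oligodendrocyte-type nuclei. At least 3 Rspo2 UMIs were found in 0.512% of the Normal and 0.441% of the SAH oligodendrocyte-type nuclei. Whether free RNA or doublets gave these UMIs was not tested. The members' shares are fixed by the rule and are given only to set this background beside them.

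The given markers were detected in unequal shares of the nuclei. They came with the working label, so they cannot by themselves place the nuclei in a region. Of the given markers besides Rspo2, Npsr1 was detected in 21.8% of the Normal and 10.9% of the SAH members, Bmp3 in 37.4% and 26.9%, Gm11639 in 44.8% and 30.8%, and C1ql3 in 80.5% and 62.2%. None of Npsr1, Bmp3 and Gm11639 was detected in 35.6% of the Normal members (28.5 to 43.2) and 49.8% of the SAH members (42.6 to 56.9), and all 3 of them in 15 and 2 nuclei. Npsr1 was concentrated in few nuclei, since the 10 nuclei with most Npsr1 held 60.4% of its UMIs in Normal and 84.0% in SAH. The nuclei are therefore named here by their rule, as Rspo2-positive excitatory nuclei.

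The given markers were nevertheless higher in these nuclei than in excitatory nuclei with no Rspo2 UMI. Npsr1 reached 135 CPM (its UMIs scaled to a fixed total of UMIs over the group; exact 95% Poisson interval 124 to 148) in the Normal members and 55.3 (48.4 to 62.9) in the SAH members, against 21.7 and 19.4 in the comparison nuclei. Gm11639 stood at 84.4 and 60.3 CPM against 14.6 and 9.89, Bmp3 at 30.7 and 18.2 against 8.69 and 6.38, and C1ql3 at 248 and 83.1 against 86.9 and 33.2. In both libraries all 4 genes were higher in the members than in each of the 3 comparison groups, the nuclei with at least 4 Cux2 UMIs, those with at least 5 Foxp2 UMIs and those with neither. For Npsr1 the nearest of these groups was the last, at 27.1 CPM in Normal and 24.1 in SAH.

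**Figure D1:**
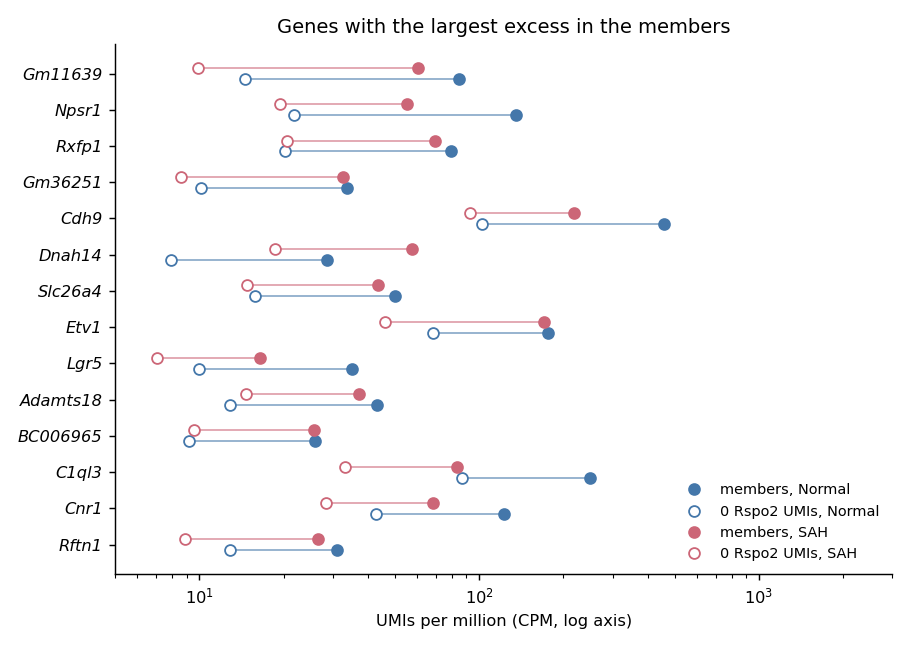
Level of the 14 genes with the largest excess in the Rspo2-positive nuclei over excitatory nuclei with 0 Rspo2 UMIs, in CPM on a log axis. Filled points are the members and open points the comparison nuclei, in blue for Normal and red for SAH; in every row the filled point lies to the right of the open point of its library.

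Beyond the given markers, the genes with the largest excess over the comparison nuclei (at least 200 UMIs) were Rxfp1, Gm36251, Cdh9, Dnah14, Slc26a4, Etv1, Lgr5, Adamts18, BC006965, Cnr1 and Rftn1, and each was higher in the members in both libraries. Rxfp1, the relaxin receptor, stood at 79.3 CPM in the Normal and 69.4 in the SAH members against 20.2 and 20.5 CPM in the comparison nuclei. Cdh9, a cadherin of synaptic contacts, stood at 459 and 217 against 103 and 92.8. Etv1, an ETS-family transcription factor common in layer 5 neurons, stood at 176 and 170 against 68.2 and 46.1. Lgr5, a receptor for R-spondins, stood at 35.0 and 16.5 against 9.94 and 7.05. Cnr1, the cannabinoid receptor CB1, stood at 122 and 68.5 against 42.8 and 28.3. These values describe nuclei that were themselves chosen by Rspo2, and no test was made on them.

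Lists of regional markers gave a mixed picture. Of 8 other genes of amygdala pyramidal neurons, Etv1 and Cyp26b1, an enzyme that degrades retinoic acid, were at least 2-fold higher in the members than in the comparison nuclei, with log2 ratios of 1.61 (1.52 to 1.70) and 2.18 (1.61 to 2.71) over both libraries, although Cyp26b1 rested on 42 UMIs. Etv1 is also in the layer 5 list. Ppp1r1b, Lypd1 and Lmo3 of the amygdala list were lower, at -1.77 (-3.10 to -0.71) on 7 UMIs, -0.79 (-1.03 to -0.56) and -0.25 (-0.36 to -0.15). Of 8 genes of claustrum and endopiriform nucleus, 3 were at least 2-fold higher. These were Oprk1, the kappa opioid receptor, at 1.92 (1.60 to 2.23), Nr4a2, an orphan nuclear receptor, at 1.08 (0.88 to 1.28), and Car3 on 11 UMIs. Synpr of that list was lower at -0.67 (-0.81 to -0.53), and Gng2, Gnb4, Nr2f2 and Ntng2 stood from 0.12 to 0.75. Il1rapl2 of the middle-layer list stood at 1128 CPM against 491 in the comparison nuclei, while Rorb of that list was lower at -1.61 (-1.71 to -1.50). The other 4 layer 5 genes stood from -0.02 for Pou3f1 and 0.11 for Bcl11b to 0.58 for Parm1 and 0.69 for Deptor. All 8 thalamic genes and 6 of 7 upper-layer genes were at least 2-fold lower, and of these Cux2 was limited by the rule.

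Most given markers were higher in nuclei with more Rspo2 UMIs. Over both libraries Npsr1 stood at 26.0 CPM (20.9 to 31.9) in the nuclei just outside with 2 Rspo2 UMIs, at 49.9 in members with 3, at 84.2 with 4, at 85.1 with 5 to 9 and at 189 (167 to 214) with 10 or more. Gm11639 went from 32.8 CPM with 2 Rspo2 UMIs and 38.5 with 3 to 129 with 10 or more. C1ql3 was alike on both sides of the limit, at 104 CPM with 2 Rspo2 UMIs and 104 with 3, and reached 257 with 10 or more. Within the Normal library the order was not even, since Npsr1 stood at 179 CPM with 4 Rspo2 UMIs and 106 with 5 to 9. The median depth also went up along these classes, from 15830 UMIs per nucleus with 2 Rspo2 UMIs to 26502 with 10 or more, and its part in these levels was not tested.

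**Figure D2:**
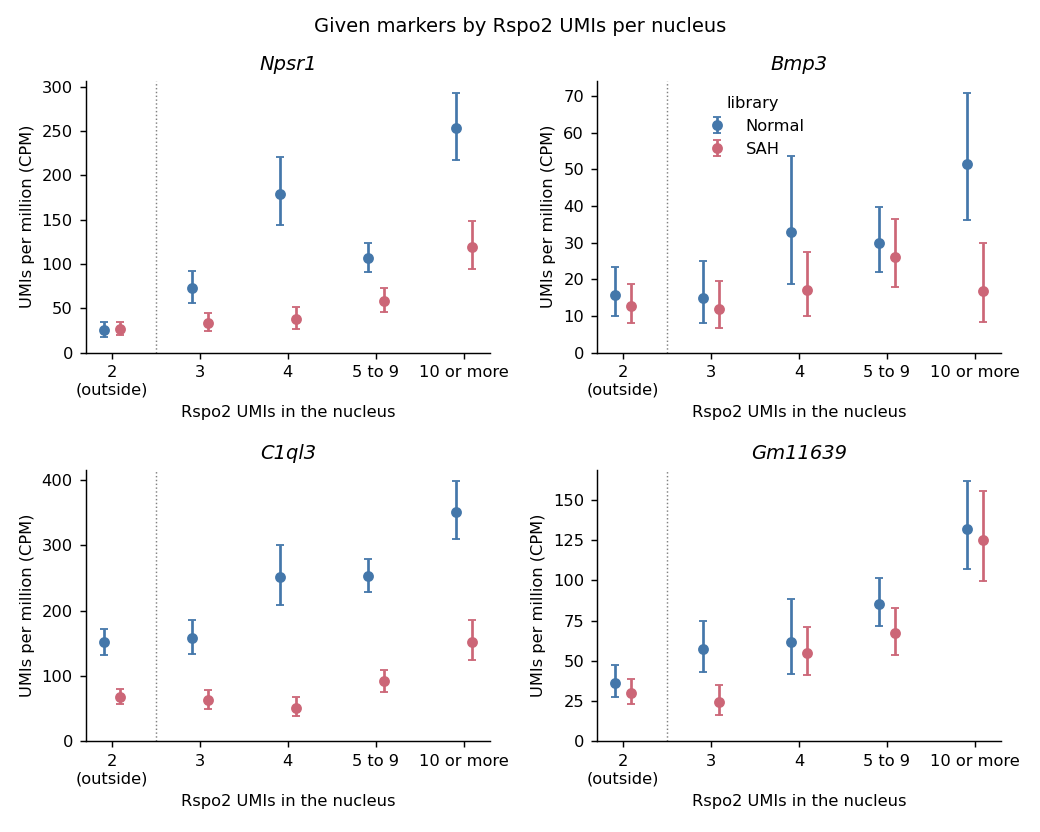
Level of the 4 given markers other than Rspo2 (CPM, bars are exact 95% Poisson intervals) by the number of Rspo2 UMIs in the nucleus, in the Normal (blue) and SAH (red) libraries. The dotted line is the limit of 3 UMIs; Npsr1 in SAH goes from 26.7 in nuclei with 2 Rspo2 UMIs to 119 in nuclei with 10 or more, where it is 253 in Normal.

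The excitatory nuclei of both libraries were clustered with the rule genes and the given markers left out, so that these genes could not decide the grouping. The members fell into 24 of 29 clusters, and the 4 clusters with most members held 66.4% of them (61.4 to 71.2). Cluster 1 held 100 members, 47 in Normal and 53 in SAH, and cluster 3 held 38, of which 28 were in Normal and 10 in SAH. In these 2 clusters all 5 given markers were at least 2-fold higher than in the other excitatory nuclei. This was scored over all nuclei of a cluster, of which members made up 22.3% in cluster 1 and 24.8% in cluster 3. Together they took 36.8% of the members (31.9 to 41.9). The other 63.2% lay in clusters where not all 5 reached that level or that held too few members to be scored. The score does not say which markers those members themselves carried.

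The clusters differed in which regional genes they carried. Leading genes and list genes were scored over all nuclei of a cluster, and members were a minority of each cluster named here except cluster 7. Cluster 1 was led by Gm6209, Spag16, Dnah14, Blnk and Npsr1 and also held Gnb4, Ntng2 and Oprk1 of the claustrum list and Cdh13 of the amygdala list at least 2-fold above other excitatory nuclei, together with Drd1, Drd2 and Rgs9 of the striatal list and Slc32a1 of the inhibitory list. Cluster 3 was led by Frem1 and Gm11639 and carried 4 of the 8 other amygdala genes at that level, Lmo3, Etv1, Lypd1 and Cyp26b1. In its members Npsr1 stood at 420 CPM in Normal and 292 in SAH, against 129 and 63.2 in the members of cluster 1. Cluster 2, with 76 members (35 in Normal and 41 in SAH), was led by Rxfp2, Gm10635 and Il1rapl2. It carried Deptor and Etv1 of the layer 5 list, with 32 Npsr1 UMIs in its Normal and 5 in its SAH members. Cluster 4, with 35 members, was led by Erg and carried Bcl11b, Parm1 and Pou3f1 of the layer 5 list and Fezf2, Adcyap1 and Cdh13 of the amygdala list. Cluster 5, with 19 members, was led by Ccn2 and carried 5 of 7 layer 6 genes, and cluster 6, with 18, carried Zbtb20, Iyd and Gm2115 of the hippocampal list. Cluster 7 was the one that members filled most, with 18 of its 28 nuclei, and was led by Stac, Ndst4, Gm2164 and Etv1. Cluster 10, with 10 members, was led by Ebf1, Sox6, Meis1 and Kcnip1. It carried 5 of the 7 inhibitory genes, among them Gad1 and Gad2, although its members were held to 2 Gad UMIs. Npsr1 stood at 524 CPM in its members, above the other 9 clusters with most members. That value rests on 5 members in each library, so a few nuclei can set it. Over all members the 10 nuclei with most Npsr1 held 60.4% of its UMIs in Normal and 84.0% in SAH.

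The cluster make-up of the members was unlike in the 2 libraries. Cluster 3 took 16.1% of the Normal members (11.0 to 22.4) and 4.98% of the SAH members (2.41 to 8.96), whereas cluster 4 took 4.02% (1.63 to 8.11) and 13.9% (9.46 to 19.5). Clusters 1 and 2 took near-equal shares, 27.0% and 26.4% for cluster 1 and 20.1% and 20.4% for cluster 2. Over all excitatory nuclei, cluster 3 held 106 in Normal and 47 in SAH, and cluster 4 held 128 and 203. The libraries were clustered together with no step to align them, and some clusters came mostly from 1 library. Cluster 16 held 431 Normal and 17 SAH nuclei, and cluster 17 held 11 and 427. A cluster's share can therefore differ by library as well as by kind of nucleus. Fewer nuclei of a kind and fewer UMIs of its marker genes per nucleus cannot be told apart with 1 pool per group. Comparisons between the libraries are for this reason given over all members and, where the counts allow, within clusters 1 and 2.

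**Figure D3:**
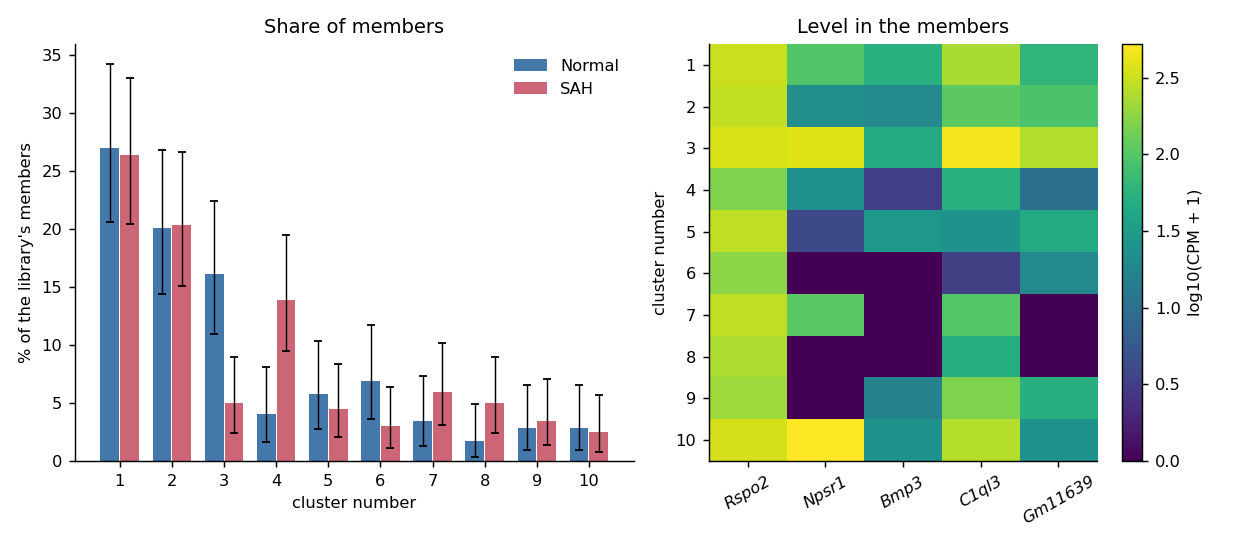
Left, the share of each library's members in the 10 clusters with most members (bars, Normal blue and SAH red, with exact 95% binomial intervals). Right, the level of the 5 given markers in the members of each cluster as log10(CPM + 1). Cluster 3 has the highest C1ql3 and clusters 3 and 10 the highest Npsr1, which in cluster 10 rests on 10 members.

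In the SAH library, 484 of the 7394 genes with at least 100 UMIs in the members were at least 1.5-fold higher than in the Normal library (6.55%) and 895 were at least 1.5-fold lower (12.1%). The median log2 ratio of SAH over Normal across these genes was -0.09 (-0.10 to -0.08). Genes that were lower were short, with a median length of 19.8 kb against 60.0 kb for those that were higher and 48.0 kb for all genes tested. When each ratio was centred on the 500 genes nearest in length, 647 genes were higher and 460 lower, so that higher genes made up 58.4% of the calls in place of 35.1%. In the comparison nuclei 11.2% of 14661 genes were higher and 17.5% lower. These 14661 genes had at least 100 UMIs in the comparison nuclei. Genes of the lists below were counted there only if they also had 100 UMIs in the members, so the 14661 genes reach lower levels than the list genes. The genes named below were picked by their size of change or by lists, and their values describe these libraries.

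Among the given markers, Rspo2 itself was held by the rule and stood at 294 CPM in Normal and 265 in SAH. C1ql3 was 2.99-fold lower in the SAH members, with a log2 ratio of -1.58 (-1.76 to -1.40), on 929 and 347 UMIs. It was also lower in the comparison nuclei, at -1.39 (-1.48 to -1.30). Npsr1 was 2.45-fold lower in the SAH members, at -1.29 (-1.52 to -1.06) on 507 and 231 UMIs, and in the comparison nuclei its ratio was -0.16 (-0.30 to -0.02). Bmp3 was 1.69-fold lower at -0.76 (-1.19 to -0.32) on 115 and 76 UMIs. Gm11639, on whose strand 5 other annotated genes overlap, stood at -0.48 (-0.73 to -0.24) and did not reach 1.5-fold.

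Part of these differences moved with the cluster make-up. Cluster 3 supplied 281 of the 507 Npsr1 UMIs of the Normal members (55.4%) and 69 of the 231 of the SAH members (29.9%). When clusters with at least 5 members in each library were weighted alike, a setting added after seeing the data, the Npsr1 ratio went from -1.29 to -0.61, that of C1ql3 from -1.58 to -1.26, that of Bmp3 from -0.76 to -0.44 and that of Gm11639 from -0.48 to 0.15. Within cluster 1, Npsr1 stood at -1.03 (-1.51 to -0.55) and C1ql3 at -1.05 (-1.35 to -0.75), and within cluster 3 they stood at -0.52 (-0.92 to -0.14) and -1.55 (-2.03 to -1.11). In cluster 7 Npsr1 was higher in SAH, at 1.51 (0.25 to 3.05) on 6 and 35 UMIs. C1ql3 was thus lower in SAH within clusters 1, 2 and 3, whereas in cluster 4 it stood at 0.40 (-0.78 to 1.80) on 47 UMIs. Gm11639 changed sign between clusters, at -0.25 (-0.83 to 0.33) in cluster 1 and 0.71 in cluster 2 on 56 and 101 UMIs.

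**Figure D4:**
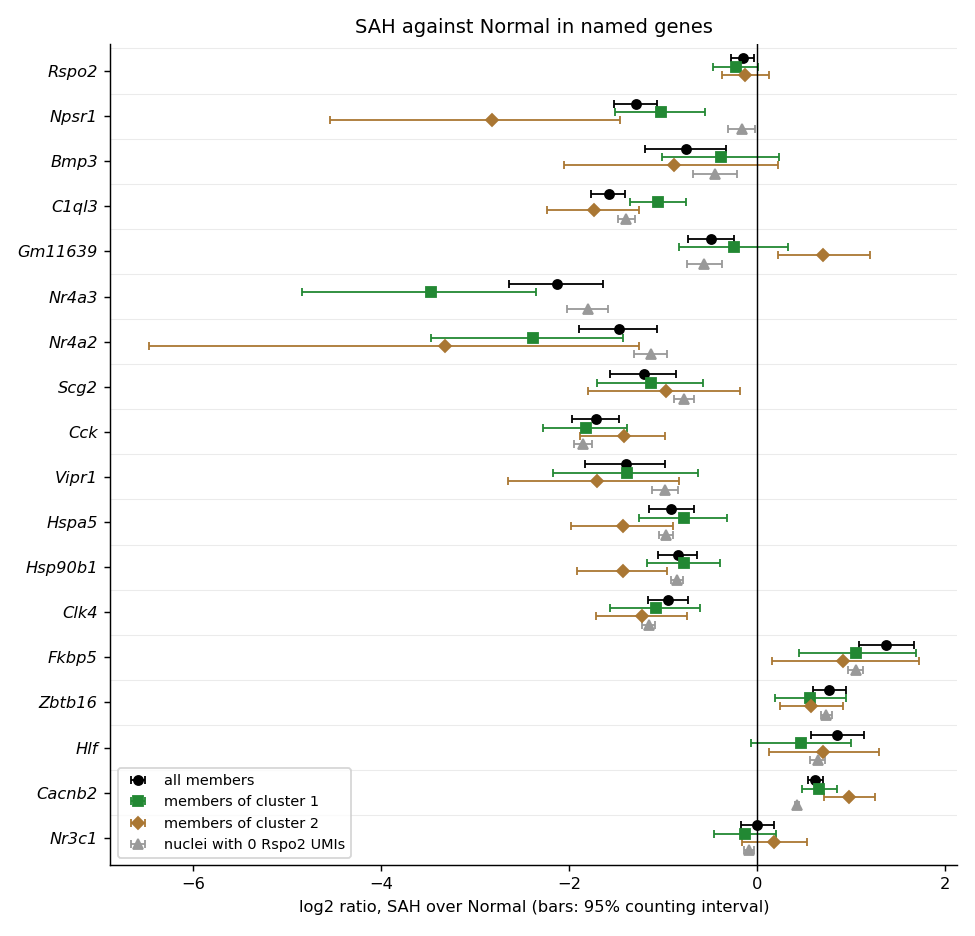
The log2 ratio of SAH over Normal with its 95% counting interval for 18 genes, in all members (black), the members of cluster 1 (green), the members of cluster 2 (brown) and excitatory nuclei with 0 Rspo2 UMIs (grey). Cluster points are shown where the gene had at least 20 UMIs in the cluster; Cck and Clk4 lie left of 0 in all 4 groups, and Fkbp5 and Zbtb16 lie right of it.

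Among the lists with at least 5 tested genes, neuropeptides and their receptors had the largest share of lower genes. Only 10 of its 40 genes passed 100 UMIs. Of these 7, Npsr1 among them, were at least 1.5-fold lower (70%, against 12.1% of all genes) and none was higher. The median log2 ratio was -0.92 against -0.09 over all genes. This median depended on the limit, at -0.26 over genes with at least 50 UMIs, -0.59 with at least 10 and -1.35 with at least 200, and it was -0.57 within cluster 2. Cck, which encodes cholecystokinin, went from 528 UMIs (141 CPM) in Normal to 180 (43.1 CPM) in SAH, at -1.71 (-1.96 to -1.46), and was detected in 86.2% and 50.7% of the members. Its receptor gene Cckbr stood at -0.83 (-1.28 to -0.37). Vipr1, a receptor for vasoactive intestinal peptide, stood at -1.40 (-1.83 to -0.98) on 163 and 69 UMIs. Sstr2, a somatostatin receptor, stood at -1.31 (-1.93 to -0.72), and Crhr1, the receptor of corticotropin-releasing hormone, at -0.64 (-1.12 to -0.16). Cck and Vipr1 were lower within clusters 1 and 2 alike, Cck at -1.82 and -1.42 and Vipr1 at -1.38 and -1.70. In the comparison nuclei 4 of the 10 genes were lower and 1 higher, against 17.5% and 11.2% of the wider set of genes tested there. Cck stood at -1.85 in these nuclei.

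Late activity-dependent genes, which neurons make in the hours after firing, were mostly lower. Of 22 genes, 17 passed 100 UMIs. Of these, 9 were at least 1.5-fold lower (52.9%, against 12.1% of all genes) and 2 higher (11.8%, against 6.55%). The list median was -0.61, and it was -0.30 within cluster 2. Nr4a3, an orphan nuclear receptor, went from 172 UMIs to 44, at -2.12 (-2.64 to -1.64). This was the largest fall among genes with at least 200 UMIs and at least 10 in each library. One Normal nucleus held 28 of these UMIs, and without it the ratio was -1.88. Nr4a2 stood at -1.47 (-1.89 to -1.06), Scg2, which encodes secretogranin II of dense-core vesicles, at -1.21 (-1.56 to -0.86), Bdnf at -0.87 on 192 and 117 UMIs, and Nptx2, a neuronal pentraxin, at -1.24 (-1.89 to -0.63). The 2 higher genes were Inhba, which encodes an activin subunit, at 0.99 on 128 and 283 UMIs and Crem, a cyclic AMP-responsive regulator, at 0.62 on 57 and 98 UMIs. In the comparison nuclei 11 of the 17 were lower and 1 was higher, against 17.5% and 11.2% of the wider set of genes tested there. Of 19 rapid immediate early genes, which respond to firing within minutes, Nr4a1 alone passed 100 UMIs, at -0.85 (-1.24 to -0.48). The rest of that list was sparse, and its median was -1.68 over genes with at least 50 UMIs and -1.59 over genes with at least 10. Arc stood at -2.74 (-4.03 to -1.65) on 48 and 8 UMIs, and Npas4 at -1.96 (-2.73 to -1.24) on 73 and 21.

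Glucocorticoid-induced genes were split. Of 24 genes 10 passed 100 UMIs, with 2 higher (20%) and 1 lower (10%), against 6.55% and 12.1% of all genes. The list median was 0.08, and it was 0.32 and 0.46 within clusters 1 and 2 and -0.07 with clusters weighted alike. Fkbp5, a co-chaperone of the glucocorticoid receptor, went from 131 UMIs (35.0 CPM) to 379 (90.7 CPM), a 2.59-fold higher level at 1.38 (1.08 to 1.67). Zbtb16, a zinc finger transcription factor, went from 114 to 195 CPM at 0.77 (0.60 to 0.94). Within clusters 1 and 2 Fkbp5 stood at 1.06 and 0.92 and Zbtb16 at 0.57 and 0.58. Per1, a clock gene that glucocorticoids also induce, was lower at -1.16 (-1.74 to -0.60). The glucocorticoid receptor gene Nr3c1 stood at 134 CPM in both libraries, with a ratio of 0.00 (-0.17 to 0.18), and the mineralocorticoid receptor gene Nr3c2 at 268 and 339 CPM, at 0.34 (0.22 to 0.46). Of 14 circadian clock genes past 100 UMIs, 21.4% were lower, namely Per1, Per2 and the kinase gene Csnk1e. Hlf, a clock-output transcription factor, was higher at 0.85 (0.57 to 1.14), which is 7.14% of these genes. The shares over all genes were 12.1% lower and 6.55% higher.

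In the R-spondin and Wnt list 5 of the 16 genes past 100 UMIs were lower (31.3%, against 12.1% of all genes) and none was higher, with a median of -0.18. Lgr5, a receptor of R-spondins, stood at -1.08 (-1.52 to -0.65) on 131 and 69 UMIs, with 24 of the Normal and 21 of the SAH UMIs in 1 nucleus each, and its relative Lgr4 at -0.08. Ror1, a Wnt co-receptor, stood at -0.92 (-1.21 to -0.64), Dvl1, which relays the Wnt signal inside the cell, at -0.86 (-1.31 to -0.41) and Wnt4, a ligand, at -0.63 (-1.17 to -0.09). Dvl1 stood at 0.42 within cluster 1, on 12 and 18 UMIs. Znrf3, the ubiquitin ligase that R-spondins act on, stood at -0.16, and Ctnnb1, which encodes beta-catenin, at 0.21. Of the 10 BMP-signalling genes past 100 UMIs only Smad7, an inhibitor of the pathway, passed 1.5-fold, at -1.37 (-1.92 to -0.85), and the median of the list was -0.23. Of 28 genes of C1q-like proteins and partner adhesion molecules, 5 were lower, C1ql3 among them, and none was higher, with a median of 0.14. The shares of lower genes in these last lists, 10% and 17.9%, lie near that over all genes. Adgrb3, the receptor of C1ql3, stood at 0.17 (0.14 to 0.20) on 14910 and 18687 UMIs, while its relatives Adgrb1 and Adgrb2 stood at -0.83 and -0.91.

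In the lists of transmitter receptors and channels, shares of 0% to 18.2% of the genes were lower, against 12.1% of all genes. None of 10 GABA-A receptor subunit genes passed 1.5-fold in either direction, and their median was 0.24. Of 18 glutamate receptor genes, Grik3 stood at -0.81 (-0.97 to -0.65), Grik5 at -0.60 (-0.79 to -0.41) and Grik1 at 0.90 (0.63 to 1.17), all 3 being kainate receptor subunits. Grik1 was carried mainly by cluster 7, with 6 Normal and 12 SAH members, which held 52.1% of its UMIs in Normal and 69.1% in SAH. Its ratio was 0.38 in members with at least 1 UMI of Npsr1, Bmp3 or Gm11639. It was 0.58 with nuclei weighted equally, 0.63 with clusters weighted alike and 1.69 without the single Normal nucleus that held 70 UMIs. Of 36 potassium channel genes 5 were lower (13.9%) and none was higher. Kcnip2, a subunit of A-type channels, had the largest fall of the list, at -1.01 (-1.48 to -0.56). Of 22 genes in the list of sodium, calcium and HCN channels, 4 were lower (18.2%) and 2 higher (9.09%). Cacnb2, a calcium channel beta subunit, went from 508 to 781 CPM at 0.62 (0.54 to 0.70), and stood at 0.66 and 0.98 within clusters 1 and 2.

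**Figure D5:**
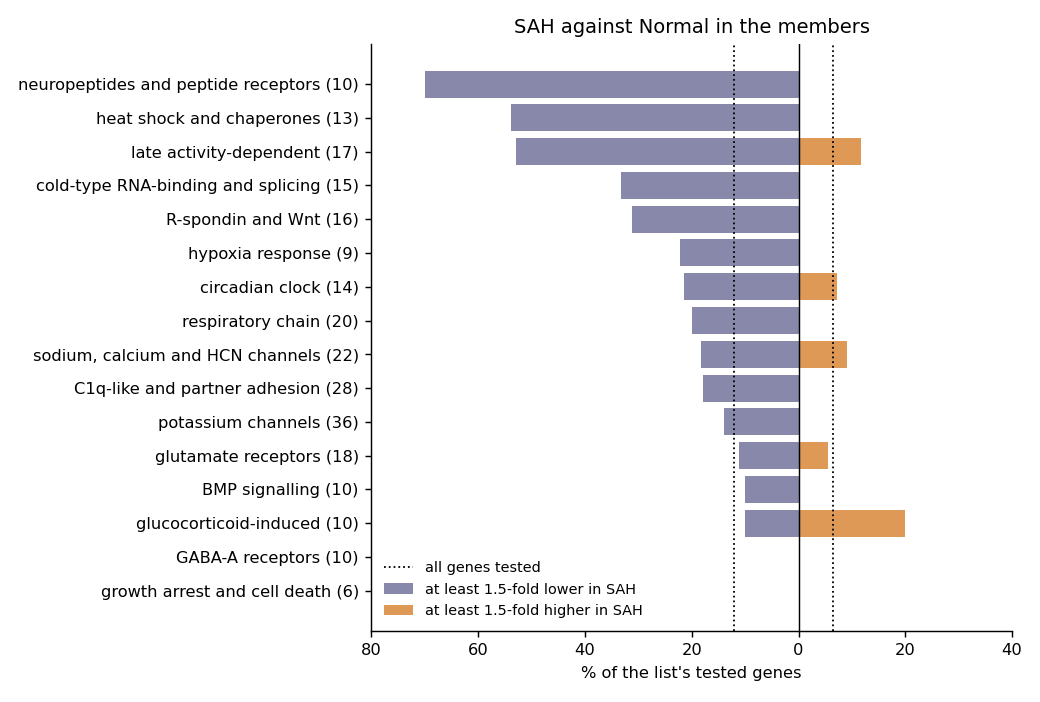
Share of each list's tested genes (number in brackets) at least 1.5-fold lower (left) or higher (right) in the SAH members, for lists with at least 5 tested genes. Dotted lines are the shares over all genes tested, 12.1% and 6.55%; neuropeptides and receptors reach 70% lower and GABA-A receptors 0%.

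Chaperone and RNA-processing genes were often lower. Of 13 heat shock and chaperone genes 7 were lower (53.8%, against 12.1% of all genes) and none higher, with a median of -0.65. The median was -0.17 within cluster 1 and -0.00817 with members thinned to 5000 UMIs, where fewer genes had 100 UMIs. Hsp90ab1, a cytosolic chaperone, stood at -1.01 (-1.34 to -0.68), and the endoplasmic reticulum chaperones encoded by Hspa5 and Hsp90b1 stood at -0.91 (-1.15 to -0.67) and -0.84 (-1.05 to -0.64). Of 15 cold-type RNA-binding and splicing genes 5 were lower (33.3%). Among them were Srsf6, a splicing factor, at -0.98 (-1.43 to -0.55) and the splicing kinase gene Clk4 at -0.94 (-1.16 to -0.73). Of 20 respiratory chain genes 4 were lower (20%), a share nearer to that over all genes. They were led by the cytochrome c oxidase subunit genes Cox8a at -1.38 (-1.87 to -0.90) and Cox4i1 at -1.16 (-1.62 to -0.71). In the comparison nuclei 8, 6 and 11 genes of these 3 lists were lower, where 17.5% of the wider set of genes tested there were lower. These lists hold many short genes, and after centring on genes of like length their medians went from -0.65 to -0.24, from -0.43 to -0.17 and from -0.34 to 0.01. The respiratory chain median also changed sign within cluster 1, where it was 0.25, and was -0.46 within cluster 2. Of 9 hypoxia-response genes Vegfa and P4ha1 were lower (22.2%) and none was higher, and none of 6 genes of growth arrest and cell death passed 1.5-fold.

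The largest rises and falls lay partly outside the lists. Among genes with at least 200 UMIs, 6 of the 10 largest rises were predicted or unnamed loci, with log2 ratios from 1.70 for Gm42303 to 2.36 for Gm42705. AY036118 went from 193 to 833 UMIs at 1.95 (1.72 to 2.19), and stood at 1.77 in the comparison nuclei. Alas2, the haem-synthesis enzyme of red cell precursors, went from 47 to 172 UMIs at 1.71 (1.24 to 2.21), against 1.94 in the comparison nuclei, and 2 annotated genes overlap it on the other strand. The median share of haemoglobin UMIs in the members was 0% in both libraries. Tcerg1l at 1.82 and Gm42705 were among the 10 leading genes of cluster 4, which held more SAH than Normal members, and with clusters weighted alike they stood at 0.67 and 1.47. Polq, a DNA repair polymerase, stood at 1.76 and Cemip, which takes part in hyaluronan breakdown, at 1.71.

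Among the falls, C130073E24Rik stood at -1.99 (-2.33 to -1.65) on 334 and 94 UMIs. Of these, 121 and 20 came from cluster 1, where the ratio was -2.76 (-3.53 to -2.07), while the comparison nuclei stood at -0.17. One Normal nucleus held 50 of its UMIs. Rnf112, a neuronal ring finger protein gene, went from 139 to 40.2 CPM at -1.78 (-2.04 to -1.53), and its detection went from 80.5% to 56.2% of the members. Neurod6, a transcription factor of pallial excitatory neurons, stood at -1.73 (-2.20 to -1.29), against -0.92 in the comparison nuclei. Tyro3, Rps6kb2 and Shisa4 stood at -1.66, -1.65 and -1.62. Rerg stood at -1.59 over all members but at -0.28 with clusters weighted alike. The excitatory marker Slc17a7, which the rule used only as a floor, stood at 289 CPM in Normal and 184 in SAH, at -0.65 (-0.79 to -0.52).

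Markers of other cell types were also counted in the members. The 7 oligodendrocyte genes summed to 113 CPM in the Normal and 101 CPM in the SAH members, over nuclei from 0 to 1486 CPM in Normal and from 0 to 981 CPM in SAH, and Mobp and St18 among them were limited by the rule. The 6 microglial genes summed to 66.0 and 83.8 CPM, over nuclei from 0 to 350 and from 0 to 919 CPM. The 7 astrocyte genes summed to 504 and 382 CPM, over nuclei from 0 to 3069 and from 0 to 2899 CPM, with Gja1 at 0 in both libraries. Slc1a2 and Gpc5 held most of these UMIs, at 254 and 181 CPM over both libraries against 325 and 148 in the comparison nuclei. The 7 inhibitory neuron genes summed to 126 and 110 CPM, over nuclei from 0 to 4170 and from 0 to 3067 CPM, and Adarb2 held most of these UMIs. The 7 genes of striatal projection neurons summed to 1238 and 760.0 CPM, against 1212 and 652 CPM in the comparison nuclei, and Pde10a held most of them. The 7 vascular genes to 4.54 and 9.58 CPM, with Cldn5, Slco1a4, Col1a2 and Slc6a13 at 0 in both libraries. The part of these transcripts in the ratios above was not tested.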

How the data were processed

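Nuclei from pooled frozen tissue were profiled with the 10x Genomics 3′ kit v3.1. The authors deposited raw UMI counts per gene and barcode for each library, made with Cell Ranger 6.1.2 by the file header, while the submitters' processing notes give 5.0.0, with the mm10 (GRCm38) build and, by the study's methods, with intronic reads included. The deposited tables hold 12204 Normal and 18209 SAH barcodes, which are not the nuclei numbers that the study's text gives. The labels name an Illumina sequencer and ages of 6 to 8 weeks, and the study's methods name another platform and another age.

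The rule for members was applied to these counts. Members, gene lists, tests and alternatives were chosen with earlier results of these data known, so no list is independent evidence. Counts were summed over members per library and divided by the summed total (CPM). Shares have exact binomial and CPM values exact Poisson 95% intervals, and log2 ratios of SAH over Normal have exact conditional binomial intervals. Genes with at least 100 UMIs over both libraries were compared, and 1.5-fold was the limit for higher or lower. The calculation was tested on simulated counts. Named genes were, of those with 200 or more UMIs and 10 or more per library, the 10 that rose and the 10 that fell most, the given markers and rule genes, up to 4 genes per list with the largest change past 1.5-fold, the 15 genes with the largest excess over the comparison nuclei, and Nr3c1, Nr3c2, Npsr1, Crhr1, Cckbr and Adgrb3. Other list members (Arc, Npas4, Bdnf, Inhba, Crem, Adgrb1, Lgr4, Znrf3, Ctnnb1) and clusters' leading genes were named after their values were seen. Comparison nuclei were excitatory nuclei with 0 Rspo2 UMIs, in 3 groups, with at least 4 Cux2 UMIs, at least 5 Foxp2 UMIs, or neither.

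All 6671 excitatory nuclei were clustered on 1992 variable genes and 25 principal components with a shared-neighbour graph of 20 neighbours and the Leiden algorithm at resolution 1.2 (leidenalg 0.10.2, scikit-learn 1.9.0, scanpy 1.11.5, scipy 1.17.1). The libraries were not aligned to each other before clustering. Doublets were kept in the main values. Scrublet, run on each library, placed 12 Normal and 19 SAH members among the 1192 and 2653 nuclei with the highest scores, which an alternative left out. Gene lengths and positions came from GENCODE M21. Some genes that the naming rule selects are not reported here.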

Additional observations from a re-analysis of the deposited data

Results flagged for a closer look

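Nuclei with at least 3 Rspo2 UMIs but fewer than 2 Slc17a7 UMIs, which the rule leaves out, made up 1.04% of the SAH nuclei that passed the limits on genes and UMIs (159 of 15287, exact binomial interval 0.885 to 1.21) and 0.638% of the Normal nuclei (64 of 10035, 0.491 to 0.814). They are given here because they lie outside every comparison of the report and were above the level of the Normal library. At least 3 UMIs of Gad1 and Gad2 together were found in 33.3% of these SAH nuclei and 45.3% of the Normal ones, and at least 2 UMIs of Slc17a6 in 6.29% and 7.81%. The difference between the libraries was not tested, since each group is 1 library. Slc17a7, whose fixed limit sets these nuclei apart, stood at a log2 ratio of -0.65 (SAH over Normal) in the members. The part of a lower Slc17a7 level in these shares was not tested.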

How the results depend on the processing

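There were 19 planned settings and 4 added after seeing the data, and each value was computed again with those that apply to it. With at least 2 Rspo2 UMIs in place of 3, 269 Normal and 305 SAH nuclei were members, with at least 5 UMIs 95 and 88, with at least 1 UMI of Npsr1, Bmp3 or Gm11639 112 and 101, and after thinning every nucleus to 5000 UMIs 22 and 16. A floor of 5000 UMIs and the study's further limits removed no member. Counts of higher and lower genes moved to 309 and 507 with at least 5 Rspo2 UMIs, to 180 and 222 with members thinned to 5000 UMIs, to 806 and 1519, 281 and 387, and 2075 and 2756 with at least 50, 200 and 10 UMIs per gene, to 152 and 201 at 2-fold, and to 204 and 231 in cluster 1 and 184 and 196 in cluster 2, where fewer genes had 100 UMIs. With ratios centred by gene length 460 genes were lower, and centring on the median gave 635 higher and 674 lower, or 48.5% higher among the calls. The share of higher calls also went from 35.1% to 46.9% in cluster 1, 48.4% in cluster 2 and 44.8% with thinning. The median log2 ratio over all genes moved from -0.09 to -0.11 with at least 2 Rspo2 UMIs, -0.0668 with at least 5, -0.11 with nuclei weighted equally, -0.11 and -0.0603 with at least 50 and 200 UMIs per gene, -0.0294 with thinning, -0.00807 and -0.0274 in clusters 1 and 2, and to 0 and 0.0012 by the construction of the 2 centrings. The 4 clusters with most members held 58.4% of them with the rule genes and given markers kept, and 70.7% and 64.5% at resolution 0.6 and with 15 principal components.

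Of the 484 higher and 895 lower genes, 335 and 632 kept their call with clusters weighted alike, of 432 and 791 still tested. In cluster 1, 88 of 125 higher and 85 of 122 lower genes still tested kept it, and in cluster 2, 92 of 123 and 85 of 111. Among named genes past 1.5-fold with at least 100 UMIs, the sign changed only for Dvl1 (0.42) and Kcnk1 (0.21), both in cluster 1, counting genes with at least 20 UMIs in a cluster. Gad1, on 17 UMIs in all, went from 0.72 to -0.13 with at least 2 Rspo2 UMIs. No paired analysis was possible because each group is 1 library. Depth limits the comparison to genes with 100 UMIs over all members, and low genes within single clusters rest on few UMIs.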
